A study of Mus musculus with 4 samples.

Results

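Receptor genes through which blood phagocytes read colony-stimulating factors, interleukins and interferon gamma were followed in monocytes and neutrophils of mouse peripheral blood. The members were chosen by name, as the rows of the gene tables that map to Csf1r, Csf2ra, Csf2rb, Csf2rb2, Csf3r, Il6ra, Il4ra, Il17ra, Ifngr1 and Il10ra, and all 10 were found among the 43346 gene entries. Total RNA, depleted of ribosomal RNA, was sequenced in 4 libraries, 2 of monocytes (MON) and 2 of neutrophils (NEU), all from the blood of adult C57BL6 mice (male by the methods of the study) with no treatment or genetic change named. Monocytes are labelled Gr-1+ Mac-1+ and were taken by cell sorting from the mononuclear layer of a Ficoll gradient, while neutrophils came from the pellet of the gradient after the red cells were lysed and were not sorted. For the MON sort the study itself lists Ly6g- CD11b+ cells, which differs from the Gr-1+ label, so Ly6g is a marker used to choose these cells and its level in MON is no independent check. The labels do not say which animals gave which library and the study allows aliquots of the same mice as replicates, so p-values measure only the spread between these libraries, which may be technical.

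Cytokine receptors of this kind are single-pass membrane proteins that bring signalling enzymes together when a ligand joins their chains. CSF1R carries its own tyrosine kinase and is the receptor for CSF1 and IL-34, on which monocytes and macrophages depend. CSF3R, the receptor for G-CSF, drives the production and release of neutrophils. The GM-CSF receptor pairs a private alpha chain, CSF2RA, with the common beta chain CSF2RB, which the IL-3 and IL-5 receptors also use, and mice have a second beta chain, CSF2RB2, that serves IL-3 alone. IL6RA, IL4RA, IFNGR1 and IL10RA bind their ligands and signal through JAK kinases and STAT factors with a partner chain, and IL17RA signals through the adaptor TRAF3IP2 instead.

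Read assignment matters most for the beta chains, because Csf2rb and Csf2rb2 are close copies that lie side by side on chromosome 15. In the mm10 build Csf2rb spans chr15:78325752-78353847 on the plus strand, and Csf2rb2 spans chr15:78282507-78305721 on the minus strand. Their coding sequences, of 2688 and 2634 bases, are 95.2% identical over aligned bases, with 125 substituted and 66 gap columns among 2694 aligned columns, and the longest run shared without a difference is 242 bases. The stretches printed here show both ends of that range, since a read inside the first pair cannot be assigned to one gene and a read across the differing bases of the second can. The first pair, from exon 14, holds 0 differences in 120 bases and lies at coding positions 2083 to 2202 of both genes (Csf2rb chr15:78348577-78348696, plus strand, and Csf2rb2 chr15:78284752-78284871, minus strand).
Csf2rb exon 14: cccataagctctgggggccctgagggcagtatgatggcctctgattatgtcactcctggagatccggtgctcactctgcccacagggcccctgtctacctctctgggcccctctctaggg
Csf2rb2 exon 14: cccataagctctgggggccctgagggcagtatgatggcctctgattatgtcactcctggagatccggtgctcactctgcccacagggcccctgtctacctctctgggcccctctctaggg
The second pair, from exon 4, is the 120-base window with the most differences, 16, which are in capitals (Csf2rb chr15:78338867-78338986, plus strand, coding positions 278 to 397, and Csf2rb2 chr15:78294345-78294464, minus strand, coding positions 281 to 400).
Csf2rb exon 4: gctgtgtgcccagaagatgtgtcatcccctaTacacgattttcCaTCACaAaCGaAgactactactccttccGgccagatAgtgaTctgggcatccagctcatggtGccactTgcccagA
Csf2rb2 exon 4: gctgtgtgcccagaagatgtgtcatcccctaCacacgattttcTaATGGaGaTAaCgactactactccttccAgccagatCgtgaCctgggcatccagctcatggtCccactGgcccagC
Across the transcripts of these genes, 19.0% of the 50-base windows of Csf2rb2 and 7.20% of its 100-base windows occur without a difference in Csf2rb.

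The libraries held 26076261 and 25538433 assigned reads in MON and 21634828 and 20549572 in NEU. Of 13 monocyte markers, 12 were higher in MON by the edgeR fit described with the members (summed level 15912 to 16681 CPM, counts scaled to the same total in every library, in MON against 2014 to 2107 CPM in NEU), and Ly6c2 was not called. Of 13 neutrophil markers, 12 were higher in NEU (267 to 270 CPM in MON against 5437 to 5789 CPM in NEU), and Retnlg was higher in MON. Ly6g, Camp, Il1f9 and Stfa2l1 were at 0 in both MON libraries. Ly6g, counted among the 12, is the marker of the MON sort and no independent check. Over all tested genes 20.8% were higher in MON and 21.8% were higher in NEU, the shares to set beside these counts of markers. Genes of other blood cells divided between the groups too. All 12 natural killer (NK) cell markers were higher in MON (2926 to 2971 CPM in MON against 33.8 to 34.0 CPM in NEU). Of 8 dendritic cell markers 4 were higher in MON (294 to 297 CPM against 66.2 to 68.4 CPM), 3 were not called and 1 was not tested. Itgax made up most of the dendritic cell sum, at 256 and 257 CPM in MON against 53.5 and 50.3 CPM in NEU. Of 6 basophil and mast cell markers 5 were higher in MON (112 to 127 CPM against 6.52 to 6.59 CPM, with Mcpt8 at 0 in NEU). All 12 B cell markers were higher in NEU (743 to 873 CPM in MON against 5278 to 5482 CPM in NEU), as were 9 of 13 T cell markers, with 2 higher in MON (96.6 to 128 CPM against 212 to 225 CPM), 4 of 7 platelet markers (43.7 to 47.8 CPM against 79.2 to 86.4 CPM, with Gp9 at 0 in MON) and 4 of 7 red cell markers, with 1 higher in MON (6236 to 6640 CPM against 8105 to 8677 CPM). The part of these cells in the receptor values was not tested. MON libraries varied more than NEU libraries, with a biological coefficient of variation of 46.2% in MON and 14.7% in NEU.

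Apart from the beta chains, no members lie near each other in the mm10 build. Il6ra is on chromosome 3 from 89864059 to 89913196, Csf3r on chromosome 4 from 126024550 to 126044440, Il17ra on chromosome 6 from 120463247 to 120487559, and Il4ra on chromosome 7 from 125552120 to 125579474. Il10ra is on chromosome 9 from 45253837 to 45269149, Ifngr1 on chromosome 10 from 19591949 to 19610229, Csf1r on chromosome 18 from 61100598 to 61132149, and Csf2ra on chromosome 19 from 61223957 to 61228429. Csf1r shares 873 bases with Hmgxb3 on the opposite strand, which itself had 539 and 555 counts in MON and 524 and 573 counts in NEU. Il6ra and Il4ra overlap annotated antisense genes by 281 and 1342 bases, which were not analysed here. The kit marks strand, but whether the authors counted by strand was not stated where it could be read here, so reads of these overlaps may not be separated.

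Most receptors differed between the cell types, and the difference ran in both directions. All 10 passed the filter on low counts. The level of each gene in each library was its expected read count over the library's total, in CPM, and edgeR's quasi-likelihood test was fitted over all 14309 genes with enough counts, with a gene called at a Benjamini-Hochberg adjusted p under 0.05. In 9 of the 10 receptors the MON and NEU values did not overlap, where 75.1% of all tested genes did the same. For Csf2rb2, counted among the 9, the lower MON and the higher NEU value were equal to 3 digits, at 14.4 CPM. The fit called 7 of the 10, where 42.6% of all tested genes were called. Csf1r, Ifngr1, Il10ra and Il17ra were higher in MON, 4 of 10 against a background of 20.8%, and Csf3r, Il4ra and Csf2rb were higher in NEU, 3 of 10 against 21.8%. Csf2ra, Csf2rb2 and Il6ra were not called. The median log2 fold change of MON over NEU was 0.45 over the receptors and -0.06 over all tested genes. The 10 receptors summed to 3524 and 3926 CPM in MON and 4150 and 3954 CPM in NEU.

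**Figure D1:**
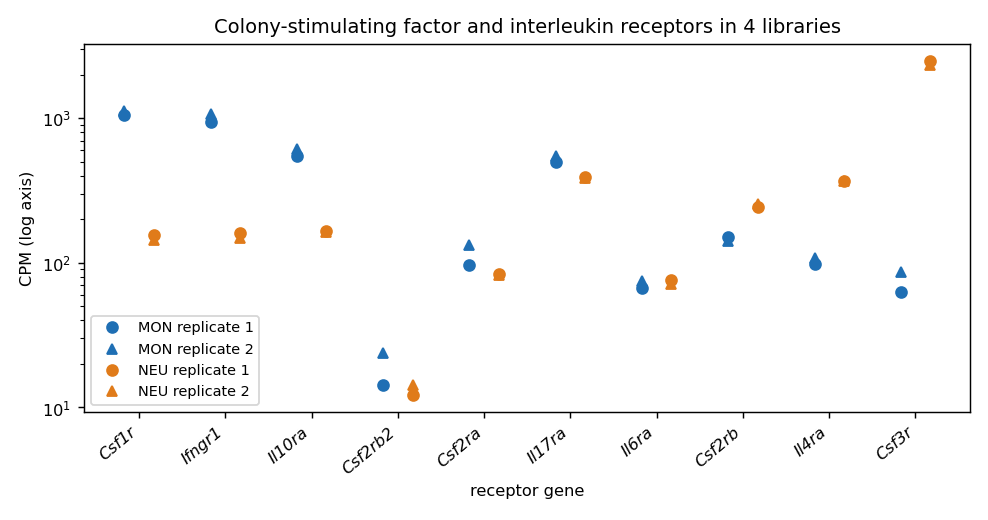
Level of each of the 10 receptor genes in CPM (log axis) in the 2 MON and the 2 NEU libraries, 1 point per library. Csf1r, Ifngr1 and Il10ra lie above 500 CPM in both MON libraries and below 200 CPM in both NEU libraries, Csf3r lies above 2000 CPM in NEU and below 100 CPM in MON, and the points of Il6ra overlap.

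The pair of lineage receptors, Csf1r and Csf3r, separated widely, in opposite directions. Csf1r had 1046 and 1130 CPM in MON, against 156 and 143 CPM in NEU. Both MON libraries stood far above both NEU libraries, and the spread within each group was small beside the gap, at 1088 ± 58.9 CPM in MON and 149 ± 8.84 CPM in NEU (SD, n = 2 each). The fitted difference was 7.27-fold, a log2 fold change of 2.86 ± 0.09 (SE, 95% interval 2.63 to 3.09, edgeR adjusted p = 3.2e-05). NEU still held 3369 and 2943 counts of Csf1r. In these bulk samples, fewer cells of a type and less RNA per cell cannot be told apart. The MON libraries, in which Csf1r was higher, also had 12 of 13 monocyte, 4 of 8 dendritic cell and 12 of 12 NK cell markers higher. Over all tested genes 20.8% were higher in MON.

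Csf3r ran the other way. It had 62.9 and 87.0 CPM in MON, against 2497 and 2325 CPM in NEU. Here too the groups did not overlap, and the MON libraries differed from each other by more, in proportion, than the NEU libraries did. NEU exceeded MON 32.2-fold, with a log2 fold change of MON over NEU of -5.01 ± 0.19 (SE, 95% interval -5.48 to -4.54, edgeR adjusted p = 4.3e-05). The effective length that RSEM gave the gene, a mean over its transcripts weighted by their estimated shares, also differed, at 2436 and 2743 bases in MON against 2021 and 2068 bases in NEU. With that length as an offset in the fit, the log2 fold change was -5.36.

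Set against each other per kilobase of effective length, the receptors for CSF1 and G-CSF traded places. In MON, Csf1r stood at 8.96 and 7.85 times the level of Csf3r. NEU had the opposite balance, with Csf3r at 36.0 and 35.7 times the level of Csf1r. The neutrophil markers moved with Csf3r, at 267 to 270 CPM summed in MON against 5437 to 5789 CPM in NEU. Of the 13, 12 were higher in NEU, where 21.8% of all tested genes were. In MON 4 of the 13 were at 0, with the sorting marker Ly6g among these. Others were present, such as Cxcr2 with 336 and 240 counts, Mmp9 with 339 and 426 counts and S100a9 with 126 and 135 counts. Csf3r itself had 1639 and 2223 counts in MON. The part of neutrophil RNA in the MON value of Csf3r was not tested.

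The receptor for GM-CSF, IL-3 and IL-5 differed in its shared chain. Csf2rb had 150 and 143 CPM in MON, against 242 and 253 CPM in NEU. Both NEU libraries lay above both MON libraries, by 1.69-fold, with a log2 fold change of -0.76 ± 0.08 (SE, 95% interval -0.96 to -0.56, edgeR adjusted p = 0.00123). The alpha chain Csf2ra had 96.0 and 133 CPM in MON, against 83.1 and 82.1 CPM in NEU. The MON values were the higher ones without overlap, but they lay far apart, and with a log2 fold change of 0.47 ± 0.17 (SE, 95% interval 0.05 to 0.89, edgeR adjusted p = 0.0724) the gene was not called. The outcome for Csf2ra rested on which MON library was kept, with a log2 fold change of 0.67 and an edgeR adjusted p = 0.000186 without MON replicate 1 and 0.19 and an adjusted p = 0.11 without MON replicate 2. With 1 MON library the spread comes from the NEU pair alone, with its coefficient of variation of 14.7%. The lone library is assumed to vary like it. More genes are called in such fits, and these p-values are no check on the spread of MON. Over all its alternatives the adjusted p of Csf2ra ran from 0.000186 to 0.169.

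Per kilobase, the balance of the GM-CSF chains differed between the cell types. Csf2ra stood at 1.75 and 2.55 times the level of Csf2rb in MON, against 0.938 and 0.884 times in NEU, so the private chain was the more abundant message in MON and the shared chain in NEU. Basophils and dendritic cells also use these receptors. Of 6 basophil and mast cell markers 5 were higher in MON (112 to 127 CPM in MON against 6.52 to 6.59 CPM in NEU). Of 8 dendritic cell markers 4 were higher in MON (294 to 297 CPM in MON against 66.2 to 68.4 CPM in NEU, mostly Itgax). Over all tested genes 20.8% were higher in MON. The part of these cells in the GM-CSF chain values was not tested, nor was that of B cells, whose markers were higher in NEU. The alpha chains that would bring IL-3 and IL-5 to the same beta chain were low. Il3ra had 97 and 21 counts in MON and 12 and 34 counts in NEU, and Il5ra had 315 and 125 counts in MON and 283 and 280 counts in NEU. Neither was called, with log2 fold changes of 1.03 (95% interval -1.53 to 3.59, edgeR adjusted p = 0.469) and -0.66 (95% interval -1.76 to 0.44, edgeR adjusted p = 0.288).

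Csf2rb2, the IL-3 beta chain, was the lowest of the 10 in every library. It had 14.4 and 24.0 CPM in MON, against 12.1 and 14.4 CPM in NEU. The lower MON value and the higher NEU value were equal to 3 digits, and the log2 fold change of 0.54 ± 0.30 (SE, 95% interval -0.20 to 1.27, edgeR adjusted p = 0.204) did not pass the test. It was 0.84 with an adjusted p = 0.00219 without MON replicate 1 and 0.10 with an adjusted p = 0.703 without MON replicate 2, so here too 1 MON library set the size of the difference, and here too only the NEU pair gave the spread. The range of its adjusted p over all alternatives was 0.00219 to 0.703.

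Of the reads given to either beta chain gene, Csf2rb2 took 8.73% (95% exact interval 7.91 to 9.62%) and 14.4% (13.4 to 15.5%) in MON, against 4.77% (4.22 to 5.36%) and 5.37% (4.78 to 5.99%) in NEU. These intervals cover counting error only, since amplified reads without molecular identifiers are not independent molecules. Both MON shares were above both NEU shares, and the MON shares differed from each other beyond counting error. The mean share was 11.6 ± 4.02% in MON and 5.07 ± 0.42% in NEU (SD, n = 2 each), a difference of 6.50 percentage points with a two-sided exact permutation p = 0.333, the smallest that 2 libraries against 2 allow.

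RSEM's own uncertainty in dividing these reads was small beside the spread between libraries. The posterior standard deviation was 3.45 and 5.65 reads in MON and 3.84 and 4.57 reads in NEU, the same for both genes since a read taken from one goes to the other. That was 0.921 and 0.922% of the Csf2rb2 count in MON and 1.46 and 1.55% in NEU, and at most 0.155% of the Csf2rb count in any library. The posterior standard deviation of the other members was 0, apart from 0.03 reads for Csf1r in MON replicate 1. With the reads of both genes summed to 1 gene, at 4293 and 4253 counts in MON and 5498 and 5498 counts in NEU, the log2 fold change was -0.66 (edgeR adjusted p = 0.00192), again higher in NEU.

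**Figure D2:**
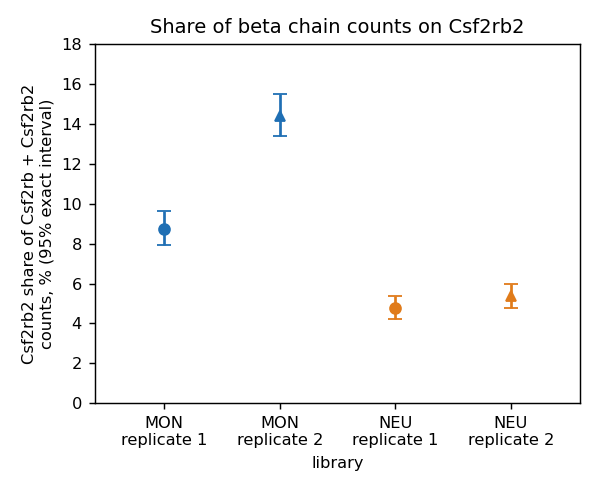
Share of the reads of Csf2rb and Csf2rb2 together that RSEM assigned to Csf2rb2, in percent, in each of the 4 libraries, with bars for the 95% exact binomial interval (counting error only). MON replicate 2 has the highest share at 14.4% and both NEU libraries lie below 6%.

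Receptors of interferon gamma and IL-10 were higher in MON. Ifngr1, the ligand-binding chain of the interferon gamma receptor, had 938 and 1071 CPM in MON, against 160 and 148 CPM in NEU. The groups lay far apart, at 1004 ± 94.0 CPM in MON and 154 ± 8.43 CPM in NEU (SD, n = 2 each), a 6.50-fold difference with a log2 fold change of 2.70 ± 0.10 (SE, 95% interval 2.44 to 2.96, edgeR adjusted p = 4.6e-05). Il10ra, the chain that binds the anti-inflammatory cytokine IL-10, had 550 and 608 CPM in MON, against 166 and 165 CPM in NEU. It too separated without overlap, by 3.50-fold, with a log2 fold change of 1.81 ± 0.09 (SE, 95% interval 1.58 to 2.03, edgeR adjusted p = 9.8e-05). NK cells also use both receptors. Their markers were all higher in MON, where 20.8% of all tested genes were. The part of NK cell RNA in these values was not tested.

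Il4ra, the chain shared by the receptors for IL-4 and IL-13, was higher in NEU. It had 98.7 and 107 CPM in MON, against 365 and 366 CPM in NEU. The NEU libraries were nearly equal and both above MON, by 3.55-fold, with a log2 fold change of -1.83 ± 0.09 (SE, 95% interval -2.04 to -1.61, edgeR adjusted p = 8.7e-05). B cells also carry this receptor, and the B cell markers had the same direction, at 743 to 873 CPM in MON against 5278 to 5482 CPM in NEU. Of these markers 12 of 12 were higher in NEU, where 21.8% of all tested genes were. The part of B cell RNA in the Il4ra value was not tested.

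Il17ra and Il6ra differed little or not detectably. Il17ra, the common chain of the IL-17 receptors, had 501 and 549 CPM in MON, against 392 and 385 CPM in NEU. MON was above NEU without overlap but only by 1.35-fold, with a log2 fold change of 0.43 ± 0.08 (SE, 95% interval 0.22 to 0.64, edgeR adjusted p = 0.0104). The adjusted p was over 0.05 without NEU replicate 1 (0.42, edgeR adjusted p = 0.0551) and without NEU replicate 2 (0.40, edgeR adjusted p = 0.0648), fits in which the spread comes from the more variable MON pair alone and fewer genes are called in all (3794 and 3985). Over all alternatives its adjusted p ran from 2.8e-05 to 0.083. Il6ra, the ligand-binding chain for IL-6, had 66.5 and 74.6 CPM in MON, against 76.3 and 71.6 CPM in NEU. These values overlapped, with a log2 fold change of -0.07 ± 0.11 (SE, edgeR adjusted p = 0.669), and the 95% interval of -0.35 to 0.21 leaves room for a small difference either way.

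The order of the receptors by level, in CPM per kilobase of effective length, differed between the cell types. In MON the order from the top was Ifngr1 at 568, Csf1r at 240, Il10ra at 175, Il17ra at 138 and Csf2ra at 68.2 CPM per kilobase, followed by Csf2rb at 31.9, Csf3r at 28.8, Il6ra at 22.2, Il4ra at 20.9 and Csf2rb2 at 4.31. Csf2rb and Csf3r overlapped between the MON libraries, as did Il6ra and Il4ra, so neither pair has a settled order. In NEU the order was Csf3r at 1180, Il17ra at 102, Ifngr1 at 92.0, Il4ra at 74.1, Csf2rb at 53.8, Il10ra at 49.9, Csf2ra at 49.0, Csf1r at 32.9, Il6ra at 23.2 and Csf2rb2 at 2.98 CPM per kilobase, and no neighbours overlapped between the NEU libraries. A single receptor, Csf3r, thus stood far above the others in NEU, while 4 receptors lay above 100 CPM per kilobase in MON. Ifngr1 and Il17ra were among the 4 highest in both.

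The partner chains are other subunits that can join the member receptors. Of 8 such genes 7 could be tested, of which 1 was higher in MON, 1 was higher in NEU and 5 were not called, where 42.6% of all tested genes were called, with a median log2 fold change of -0.02. Il6st, which encodes gp130, the signalling partner of IL6RA, had 58.9 and 67.4 CPM in MON, against 49.0 and 46.4 CPM in NEU, a log2 fold change of 0.40 ± 0.12 (SE, edgeR adjusted p = 0.0463). Il10rb, the partner of IL10RA, had 78.3 and 66.7 CPM in MON, against 95.6 and 95.7 CPM in NEU, a log2 fold change of -0.40 ± 0.11 (SE, edgeR adjusted p = 0.0358). The groups did not overlap for either gene, but both calls were near the threshold and neither held under every alternative. Ifngr2, the second interferon gamma receptor chain, at -0.39 (95% interval -0.72 to -0.07, edgeR adjusted p = 0.0578), Il2rg, the common gamma chain, at -0.02 (-0.24 to 0.20, adjusted p = 0.855) and Il13ra1, the IL-13 binding chain, at 0.11 (-0.19 to 0.41, adjusted p = 0.52) were not called. Il17rc, which joins IL17RA to bind IL-17, had 0 counts in all 4 libraries, which allows up to 3 counts in each, so Il17ra had no detectable message of this partner at this depth.

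**Figure D3:**
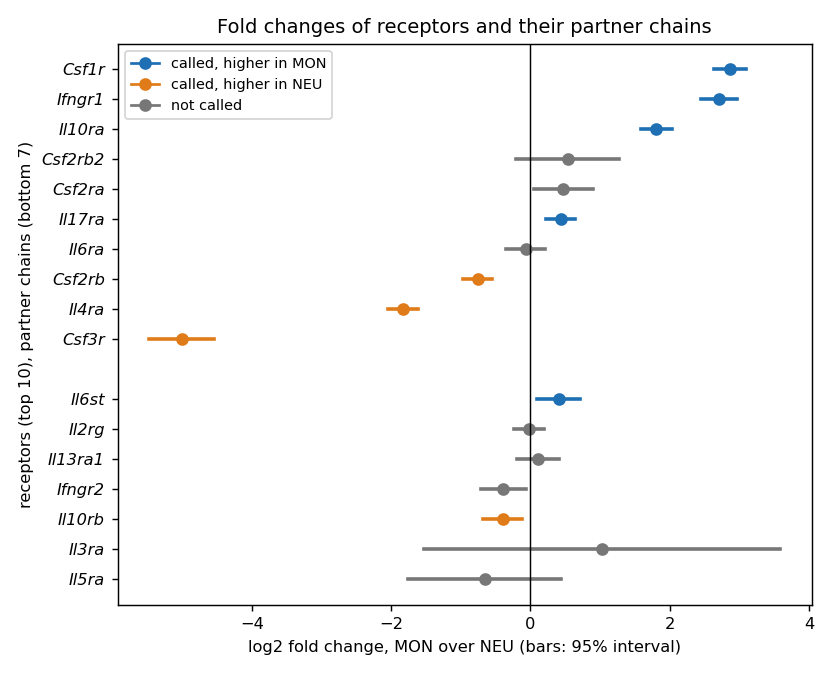
Log2 fold change of MON over NEU for the 10 receptors (top) and 7 of their partner chains (bottom), with bars for the 95% interval of the edgeR fit, blue for genes called higher in MON, orange for genes called higher in NEU and grey for genes not called. The receptors run from 2.86 for Csf1r to -5.01 for Csf3r, while the called partner chains lie at 0.40 and -0.40.

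The ratio of a receptor chain to its partner, in CPM per kilobase, differed between the cell types. Ifngr1 stood at 22.2 and 30.7 times the level of Ifngr2 in MON, against 3.09 and 3.44 times in NEU. Il10ra exceeded Il10rb in MON, at 3.63 and 4.74 times its level, and was below it in NEU, at 0.893 and 0.821 times. Relative to its partner, the ligand-binding chain was more abundant in MON in both cases, and the ratios of the groups did not overlap.

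The chains of the IL-4 and IL-6 receptors had the reverse pattern. Il4ra was at 0.216 and 0.181 times the level of Il2rg in MON, against 0.739 and 0.830 times in NEU. Relative to Il13ra1 it was at 0.442 and 0.390 times in MON, against 1.55 and 1.62 times in NEU, so the more abundant chain of this pair changed. Il6ra was at 1.99 and 2.004 times the level of Il6st in MON, against 2.97 and 2.86 times in NEU. These ratios are descriptions of 2 libraries per cell type and were not tested.

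**Figure D4:**
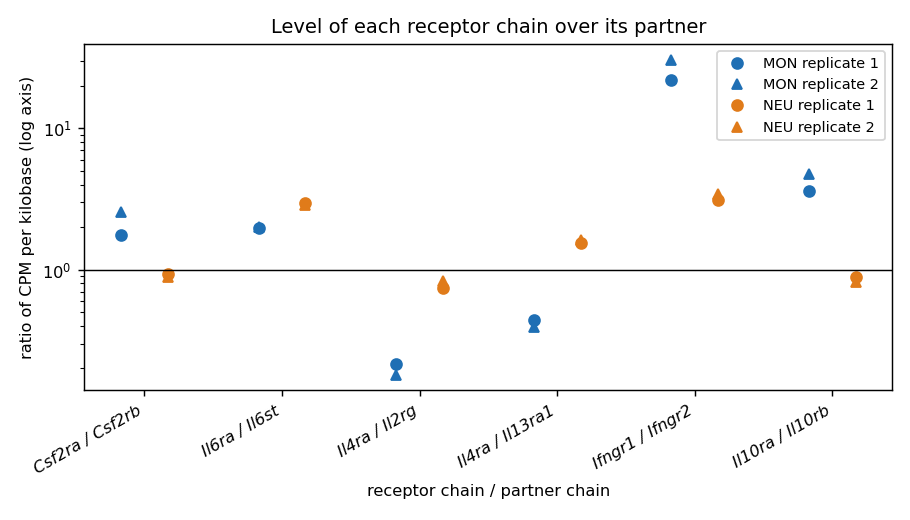
Ratio of the level of each receptor chain to that of its partner chain, both in CPM per kilobase of effective length (log axis), in the 2 MON and the 2 NEU libraries, with a line at a ratio of 1. Ifngr1 over Ifngr2 reaches 30.7 in MON, and the pairs Csf2ra over Csf2rb, Il4ra over Il13ra1 and Il10ra over Il10rb lie on opposite sides of the line in MON and NEU.

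Messages of most ligands were scarce. Of 13 ligand genes of these receptors, 4 could be tested, 3 were higher in MON (20.8% of all tested genes were) and Csf1 was not called. Il6, an inflammatory cytokine, had 33.9 and 45.0 CPM in MON, against 0.277 and 0.146 CPM in NEU, a log2 fold change of 7.50 ± 0.35 (SE, edgeR adjusted p = 8.7e-05). Ifng, the macrophage-activating interferon made by NK and T cells, had 26.3 and 32.5 CPM in MON, against 0.231 and 0.195 CPM in NEU, a log2 fold change of 7.07 ± 0.32 (SE, edgeR adjusted p = 7.7e-05). Il4, a product of basophils and T cells, was chosen after its values were seen and had 99 and 148 counts in MON, against 7 and 1 counts in NEU, a log2 fold change of 4.64 ± 0.95 (SE, edgeR adjusted p = 0.0126). All 3 ligands had at most 7 counts in either NEU library, and the libraries that held them also held the higher NK cell markers (2926 to 2971 CPM in MON against 33.8 to 34.0 CPM in NEU) and basophil and mast cell markers (112 to 127 CPM in MON against 6.52 to 6.59 CPM in NEU). The part of those cells in the ligand values was not tested.

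Csf1, the ligand of CSF1R, had 90.8 and 90.5 CPM in MON, against 102 and 93.9 CPM in NEU, with a log2 fold change of -0.12 (95% interval -0.35 to 0.12, edgeR adjusted p = 0.371), and was not called. Csf1 was the only gene among these 13 ligands with over 1 CPM in all 4 libraries. Of the 9 that had too few counts for the fit, Il34, Csf3, Il3 and Il5 had 0 counts in all 4 libraries. Il13 had 3 and 29 counts in MON and 0 in both NEU libraries. Il10 had 0 and 19 counts in MON and 0 in both NEU libraries, and Csf2 had 0 and 10 counts in MON and 0 and 2 in NEU. For Il10 and Csf2 all MON counts came from MON replicate 2, as did most of those of Il13. Il17a had 0 and 0 counts in MON and 3 and 1 in NEU, and Il17f had 0 and 11 counts in MON and 0 and 5 in NEU.

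**Figure D5:**
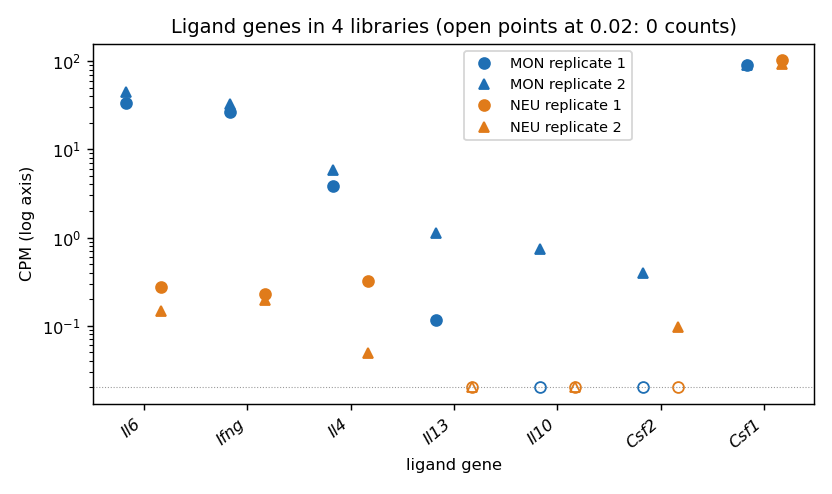
Level of 7 ligand genes in CPM (log axis) in the 2 MON and the 2 NEU libraries, with open points for a count of 0, drawn at 0.02 CPM. Il6, Ifng and Il4 lie above 3 CPM in both MON libraries and below 0.4 CPM in both NEU libraries, and Csf1 lies near 90 to 100 CPM in all 4.

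Genes that act below the receptors were called about as often as other genes. Of 32 signalling genes, all of which were tested, 7 were higher in MON (20.8% of all tested genes were), 8 were higher in NEU (21.8%) and 17 were not called, with a median log2 fold change of -0.05. Socs3, the feedback inhibitor that binds activated CSF3R and gp130, had 76.2 and 72.4 CPM in MON, against 234 and 249 CPM in NEU. It separated without overlap on the same side as Csf3r, with a log2 fold change of -1.70 ± 0.09 (SE, edgeR adjusted p = 0.000125). Traf3ip2, the adaptor of IL17RA, had 9.28 and 4.54 CPM in MON, against 22.6 and 24.1 CPM in NEU, a log2 fold change of -1.76 ± 0.36 (SE, edgeR adjusted p = 0.0126), on the side opposite to Il17ra. Pias3, an inhibitor of STAT3, was higher in NEU as well, at 6.48 and 7.95 CPM in MON against 21.3 and 22.0 CPM in NEU (-1.59 ± 0.22, edgeR adjusted p = 0.00287).

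The signalling genes with the highest CPM per kilobase were Ptpn6 and Tyrobp. Ptpn6, which encodes the phosphatase SHP-1 that dampens cytokine receptors, had 851 and 717 CPM in MON, against 806 and 806 CPM in NEU, and was not called (-0.04, 95% interval -0.29 to 0.21, edgeR adjusted p = 0.774). Tyrobp, the adaptor DAP12, which myeloid cells use to relay CSF1R signals among others, had 285 and 306 CPM in MON, against 212 and 232 CPM in NEU, and was higher in MON (0.41 ± 0.09, edgeR adjusted p = 0.0172). Among genes chosen after their values were seen, Cish, a STAT5 target and feedback inhibitor, had 129 and 172 counts in MON, against 17 and 20 counts in NEU (2.72 ± 0.52, edgeR adjusted p = 0.0103). Stat2, which carries signals of the type I interferon receptor, was higher in NEU at -1.25 ± 0.18 (edgeR adjusted p = 0.00382).

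Some of these receptors are released from the cell surface by proteases, and the genes of that machinery also differed. Adam10 had 112 and 96.6 CPM in MON, against 70.8 and 72.3 CPM in NEU (0.54 ± 0.11, edgeR adjusted p = 0.0125). Adam17, the protease that sheds CSF1R and IL6RA, had 178 and 194 CPM in MON, against 108 and 113 CPM in NEU (0.75 ± 0.09, edgeR adjusted p = 0.00199). Rhbdf2, which encodes a rhomboid-like protein that carries ADAM17 to the surface, ran the other way, at 24.5 and 19.2 CPM in MON against 62.6 and 70.2 CPM in NEU (-1.60 ± 0.17, edgeR adjusted p = 0.00108). Of the 3, 2 were called higher in MON and 1 higher in NEU, where 20.8% and 21.8% of all tested genes were. None of the 3 had overlapping groups, where 75.1% of all tested genes did not overlap either.

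The division seen in the 10 receptors was set beside that of 37 other cytokine and growth factor receptor genes. Of these, 25 could be tested, 7 were higher in MON, 8 were higher in NEU and 10 were not called, where 20.8% and 21.8% of all tested genes were higher in MON and in NEU, with a median log2 fold change of 0.47. The type I interferon receptor split by chain, with Ifnar2 at 111 and 105 CPM in MON against 54.1 and 55.2 CPM in NEU (0.97 ± 0.10, edgeR adjusted p = 0.000958) and Ifnar1 at 146 and 131 CPM in MON against 193 and 185 CPM in NEU (-0.45 ± 0.09, edgeR adjusted p = 0.0117). Il31ra, which binds IL-31, had 415 and 424 counts in MON, against 7 and 0 in NEU (6.58 ± 0.83, edgeR adjusted p = 0.00216), and Ifnlr1, the interferon lambda chain, had 0 and 23 counts in MON, against 202 and 195 in NEU (-4.37 ± 1.24, edgeR adjusted p = 0.0359).

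Among the other receptors that differed were some known from lymphocytes. Il12rb2, which NK cells and T cells use for IL-12, had 35.9 and 33.9 CPM in MON, against 1.16 and 1.56 CPM in NEU (4.68 ± 0.24, edgeR adjusted p = 0.000113). Chosen after their values were seen, Il2rb at 131 and 140 CPM in MON against 6.79 and 6.57 CPM in NEU and Il18r1 at 132 and 112 CPM against 24.8 and 21.2 CPM, both carried by NK cells, were higher in MON (4.34 ± 0.12 and 2.41 ± 0.14, edgeR adjusted p = 2.6e-05 and 0.000167), where all 12 NK cell markers were higher. Il7r at 9.47 and 8.93 CPM in MON against 59.0 and 61.8 CPM in NEU and Il21r at 14.1 and 13.5 CPM against 89.0 and 87.6 CPM, both of lymphocytes, were higher in NEU (-2.72 ± 0.14 and -2.68 ± 0.12, edgeR adjusted p = 0.000112 and 7.1e-05), where 12 of 12 B cell and 9 of 13 T cell markers were higher. Over all tested genes 20.8% were higher in MON and 21.8% were higher in NEU. Whether NK cells, B cells or T cells supplied these values was not tested.

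The genes whose levels over the 4 libraries were nearest to a member were found by Euclidean distance in log2(CPM per kilobase + 1) among 19607 protein-coding genes. Near Csf1r were Ifrd1 at a distance of 0.34, Sgk1 at 0.43, Atp5mpl at 0.46 and Uqcrb at 0.49. For Csf2rb they were Kmt2c at 0.14, Lmo2 at 0.18, and Myd88, Khnyn and Smg1 at 0.22, 0.22 and 0.23. Csf3r had no close neighbour, since the nearest was Cd55 at 2.32, followed by Fos at 2.75, Trim30b at 2.80, Cd79b at 2.80 and H2-Ob at 2.82, and Cd55 reached 412 and 366 CPM per kilobase in NEU where Csf3r had 1235 and 1124. With 4 libraries in 2 groups, such a likeness describes the level in each group of libraries and little more. Cd79b is one of the B cell markers, which were all higher in NEU, where 21.8% of all tested genes were. The part of B cell RNA in these levels was not tested.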

How the data were processed

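RNA was extracted from MON and NEU (2 libraries each), depleted of ribosomal RNA, fragmented and amplified by PCR with a stranded kit and no molecular identifiers. Per the labels and the study's methods, the authors aligned reads to mm10 with STAR, kept reads that map to several places, and deposited RSEM gene tables of expected counts, which divide such reads among genes, together with posterior mean counts and their standard deviation, effective lengths and TPM. The authors' TPM placed 89.4 to 91.7% of its total on entries of up to 500 bases, so levels here are expected counts over the library total (CPM), per kilobase of effective length between genes. Spike-in and unnamed entries (at most 0.000594% of counts) were left out. The files do not pair identifiers with names, and GENCODE M21 gave symbols and coordinates for 98% of them. Sequences and exon numbers come from mm10 with that annotation.

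Expected counts were rounded and tested with edgeR 4.0.16 (quasi-likelihood F test, TMM, filterByExpr, 14309 genes, called at Benjamini-Hochberg adjusted p under 0.05) in R 4.3.3. The fit was first run on simulated counts with the same spread in both groups. That run does not measure its error rate at the unequal spread of MON and NEU. Alternatives used DESeq2 1.42.0, limma 3.58.1 on log2(TPM + 1) or log2(TPM + 0.1) with a minimum TPM of 1, other scalings, no filter, effective length as an offset, posterior mean counts, no mitochondrial or 10 most abundant genes, and each library left out. Assigned reads per library, 20549572 to 26076261, limit precision for genes with few counts. The members and gene lists were chosen with earlier results of these data known. Besides the members, genes were named by rule: in each list the 2 with the highest CPM per kilobase, the 3 called with the largest fold change among genes whose higher group reached 5 CPM in each library, markers a result turns on, and members of counts of 5 or fewer. Some genes that this rule would name are not reported here.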

Additional observations from a re-analysis of the deposited data

How the results depend on the processing

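Of 129 values of the 10 receptors under an alternative, 122 kept their direction and side of the threshold and 0 reversed. These are not separate checks, since several alternatives are nearly the same fit. The TMM factors ran only from 0.9936 to 1.00547, so other scalings could change little. Csf2rb2 was not among the genes of the limma fits. Csf2ra passed the threshold with no filter on low counts (0.45, edgeR adjusted p = 0.0172), with DESeq2 (0.47, adjusted p = 0.0311) and without MON replicate 1 (0.67), with 0.19 to 0.67 over the libraries left out, and Csf2rb2 passed without MON replicate 1 (0.84), with 0.10 to 0.84. Il17ra lost its call with limma on log2(TPM + 0.1) (0.46, adjusted p = 0.083) and without either NEU library (0.34 to 0.48 over the libraries left out). With a library left out, its group has 1 sample, which is assumed to vary like the other pair. In the alternatives that kept all 4 libraries, the count of receptors higher in MON ran from 3 to 5, and the count higher in NEU was 3. In those fits 2054 to 3122 of all tested genes were higher in MON and 1650 to 3363 were higher in NEU. The genes tested numbered 9277 to 21031. Counts of list genes with a library left out are not given, since 1 pair alone sets the spread there.

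Genes higher in NEU numbered 1781 and 1650 with limma on log2(TPM + 1) and log2(TPM + 0.1), where 9277 genes were tested, and 1810 to 4675 with a library left out. Partner chains higher in MON numbered 0 with no filter, with DESeq2 and with both limma fits. In these fits 3122, 3092, 2225 and 2054 of all tested genes were higher in MON, in that order. Partner chains higher in NEU numbered 2 with no filter and with DESeq2, and 0 with both limma fits and with the length offset. Over all tested genes 3363, 3254, 1781, 1650 and 2562 were higher in NEU in these fits, in that order. The genes tested numbered 21031 with no filter and with DESeq2, 9277 with limma and 14293 with the offset. Signalling genes higher in MON numbered 4 and 3 with the limma fits, beside 2225 and 2054 of all tested genes. Signalling genes higher in NEU numbered 5 with limma on log2(TPM + 1) and with the length offset, and 5 to 12 with a library left out. The cause of these shifts was not tested. No paired analysis was possible because the replicate numbers only follow the order of the samples and pair no MON library with a NEU library. With 2 libraries a group, genes with few counts, such as Il3ra and most ligands, have wide intervals.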
